A study of Mus musculus with 24 samples.

Results

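Cdkn1a, the Gadd45 genes and other targets of p53 were examined as a group of 10 genes: Cdkn1a, the 3 Gadd45 genes, Trp53, Mdm2, Btg2, Ccng1, Sesn1 and Trp53inp1. They were followed in the liver of male B6C3F1 mice given diethylhexylphthalate (DEHP), a plasticiser that acts as a peroxisome proliferator in rodents, or corn oil alone. Where several Affymetrix probe sets were annotated to a gene, the one that was brightest on average across the 24 arrays stood for it. Of the 10 genes, 9 had such a probe set, among 18194 genes in all, and Trp53 is not analysed here. The Gadd45a probe set was dim, at percentile 15.5 of the mean signals of all genes, and those of the other 8 lay above the 40th percentile.

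The DEHP mice received 1150 mg/kg per day by oral gavage at 10 ml/kg, once every 24 h for 3 days, and the corn oil mice received an equal volume of the vehicle. Livers were taken at 2, 8, 24 and 72 h, giving 4 DEHP groups and 4 corn oil groups of 3 arrays each. The animals were male B6C3F1 hybrids, 7 to 10 weeks old at arrival, with food and water freely available, and the labels name no transgene. The study's design text gives 6 mice without relating them to the 3 arrays of a group, and how many doses preceded each time is not stated, so a p-value here covers the spread between arrays only.

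The transcription factor p53, encoded by Trp53, is held low by Mdm2, a ubiquitin ligase that is itself a p53 target, and accumulates after DNA damage. Its targets include Cdkn1a, whose product p21 inhibits cyclin-dependent kinases and binds PCNA, and Gadd45a, Btg2, Ccng1, Sesn1 and Trp53inp1, which act in growth arrest, stress signalling and autophagy. Several of these genes also answer to signals that do not pass through p53. In liver, Cdkn1a and Gadd45b are known to be induced by hormones, fasting, cytokines and growth stimuli as well as by damage.

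The means of 6 hepatocyte markers lay between 12.80 and 13.19 on the log2 scale on all 24 arrays. All 6 were lower with DEHP than with corn oil at 2, 8 and 24 h. At an adjusted p under 0.05 in limma, 1 was lower at 8 h and 1 higher at 72 h. Over all genes, 4.13% and 4.18% passed at those times, in either direction. Arrays of a group correlated with r between 0.989 and 0.996. The corn oil 8 h replicate 2 array stood apart in RNA quality, read from how far the Actb signal at the 3' end exceeded that at the 5' end (1.46, against at most 0.816 on the other 23 arrays). The corn oil 72 h replicate 1 array stood apart in the mean of 12 immediate-early genes (9.30, against 7.31 to 7.91 on the others), with Btg2 high on the same array. The mean of 5 exocrine pancreas markers ranged from 7.32 to 11.02 and was highest on DEHP 2 h replicate 1. DEHP 8 h replicate 2 and corn oil 8 h replicate 3 carried the same number, 14, in their titles and correlated with r = 0.99.

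Cdkn1a was 3.50-fold higher with DEHP at 2 h and lower than in corn oil at 72 h, and Gadd45b was 5.04-fold higher at 2 h and 4.90-fold higher at 8 h. None of Gadd45a, Gadd45g, Mdm2, Btg2, Ccng1, Sesn1 and Trp53inp1 was called at any time, a gene being called where its Benjamini-Hochberg adjusted p over 18194 genes in limma was under 0.05. At 2 h, 2 of 9 members were called, both higher, where 0.830% of all genes were called and 0.616% were called higher. At 8 h it was 1 of 9, higher, where 4.13% of all genes were called and 1.28% were called higher. At 24 h limma called 0 of 9, and 0 had an unadjusted p under 0.05, beside 0.297% of all genes called. At 72 h it was 1 of 9, lower, where 4.18% of all genes were called and 3.05% were called lower. The members' median difference, DEHP minus corn oil, was 0.25 at 2 h, 0.10 at 8 h, 0.03 at 24 h and -0.31 at 72 h, and the median over all genes was -0.02, -0.02, -0.00 and -0.03 at the same times.

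**Figure D1:**
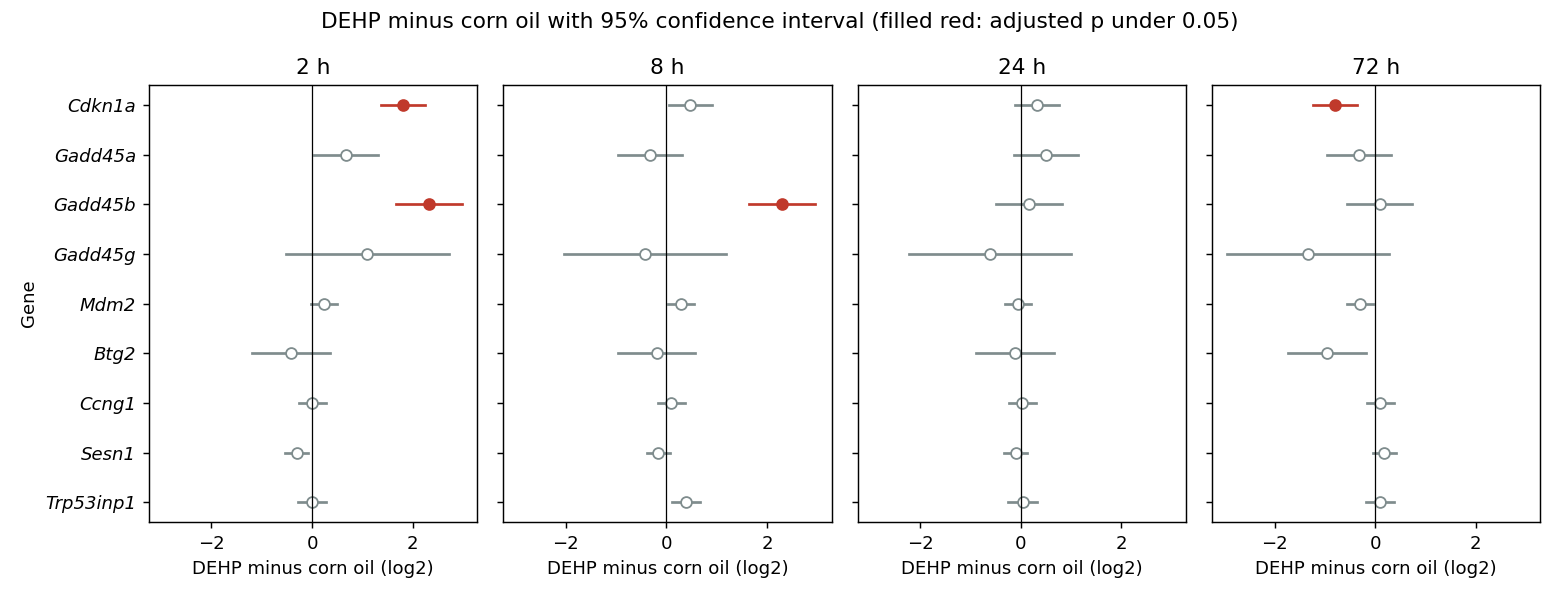
DEHP minus corn oil (x axis, log2 difference) for the 9 measured genes (y axis) at 2, 8, 24 and 72 h, with 95% confidence intervals; filled red points have an adjusted p under 0.05. The filled points are Cdkn1a (1.81) and Gadd45b (2.33) at 2 h, Gadd45b (2.29) at 8 h and Cdkn1a (-0.81) at 72 h, and the widest intervals belong to Gadd45g.

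The groups were also compared array by array, without a model. The 3 DEHP arrays lay entirely to one side of the 3 corn oil arrays for 4 of 9 members at 2 h (Cdkn1a, Gadd45b and Gadd45g above, Btg2 below), where 11.4% of all genes were so separated. At 8 h they did so for 4 of 9, each with DEHP above (Cdkn1a, Gadd45b, Mdm2 and Trp53inp1), beside 18.6% of all genes. At 24 h only Gadd45a was separated, above, beside 13.8% of all genes. At 72 h Mdm2 and Btg2 were separated, both below, beside 28.2% of all genes, so that 2 of 9 members was not above the share over all genes at that time.

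Cdkn1a, the cell cycle inhibitor p21, lies on chromosome 17 from 29090979 to 29100722 (GRCm38.p6, plus strand). RefSeq gives it 2 starts, 2790 bases apart, and the 250 bases before each are shown because p53 is known to act from the region upstream of the gene. They run from chr17:29090729-29090978 and chr17:29093519-29093768 on the plus strand of the C57BL/6J reference, C57BL/6 being 1 parent strain of these hybrid mice. Capitals mark 2 CATG cores of a p53 element with 6 bases between them, searched on both strands as CATG, any 6 bases and CATG again.

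Cdkn1a upstream start: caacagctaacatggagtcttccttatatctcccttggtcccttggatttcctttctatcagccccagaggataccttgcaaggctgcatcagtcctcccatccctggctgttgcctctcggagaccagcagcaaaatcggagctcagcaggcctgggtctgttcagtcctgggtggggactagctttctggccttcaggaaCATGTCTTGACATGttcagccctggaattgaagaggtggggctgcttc

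Cdkn1a downstream start: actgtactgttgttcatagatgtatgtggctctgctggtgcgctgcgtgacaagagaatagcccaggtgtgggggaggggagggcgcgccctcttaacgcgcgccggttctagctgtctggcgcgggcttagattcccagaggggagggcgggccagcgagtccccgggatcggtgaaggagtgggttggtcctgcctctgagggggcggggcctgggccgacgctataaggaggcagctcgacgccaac

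The upstream window holds the pattern once, as CATGTCTTGACATG at positions -48 to -35 from that start. Of 32851 promoter windows of this length, 161 hold it (0.49%), and among the 11 windows found for 9 of the 10 genes this is the only one. Those 9 genes include Trp53 but not Trp53inp1, for which no window was found. That these letters are missing from the other windows says nothing about p53 at those genes, and binding was not measured.

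At 2 h the 3 DEHP arrays gave Cdkn1a signals of 11.59, 11.09 and 11.26 on the log2 scale, against 9.82, 9.56 and 9.14 for corn oil. Every DEHP array lay above every corn oil array. In bulk liver, a change in the number of cells of a type and a change in RNA per cell cannot be told apart. The difference was 1.81 ± 0.21 (SE), a 3.50-fold rise with a 95% confidence interval of 2.59 to 4.74 (limma adjusted p = 3.35e-05).

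At 8 h the DEHP arrays read 8.21, 8.08 and 8.44, against 7.61, 7.77 and 7.92 in corn oil. The groups still did not overlap, but both stood far below their 2 h levels. The difference of 0.48 ± 0.21 was not called (adjusted p = 0.249). At 24 h the DEHP arrays read 9.03, 8.99 and 9.36, against 8.57, 9.04 and 8.79 in corn oil, and the groups overlapped (0.33 ± 0.21, adjusted p = 0.706).

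At 72 h the direction turned. DEHP arrays gave 9.001, 8.22 and 8.04, against 8.93, 9.54 and 9.22 in corn oil. DEHP replicates 2 and 3 lay below all 3 corn oil arrays, and DEHP replicate 1 lay within their range. The difference of -0.81 ± 0.21 put DEHP at 0.572 of the corn oil level (interval 0.423 to 0.774, adjusted p = 0.0328). This call was lost after quantile normalization (-0.68, adjusted p = 0.0787), with the 6 arrays of 72 h fitted alone (-0.81, adjusted p = 0.0865), and without DEHP replicate 2 (-0.70, 0.148), DEHP replicate 3 (-0.62, 0.163), corn oil replicate 2 (-0.65, 0.167) or corn oil replicate 3 (-0.81, 0.0884).

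The DEHP effect on Cdkn1a differed between the 4 times (F test on the differences, adjusted p = 0.000395, a call made for 2.08% of all genes). An F test for an effect at any time gave an adjusted p of 2.69e-05, where 6.46% of all genes were called. Both calls held under each alternative that was run. Of the successive steps, the effect at 8 h minus that at 2 h was -1.33 ± 0.30 (adjusted p = 0.0475, beside 0.418% of all genes called), a call that 22 of 35 alternatives did not keep.

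Cdkn1a also changed between times in corn oil mice. Its DEHP means were 11.32 ± 0.26 at 2 h, 8.25 ± 0.18 at 8 h, 9.13 ± 0.20 at 24 h and 8.42 ± 0.51 at 72 h (SD, n = 3), and its corn oil means were 9.51 ± 0.34, 7.77 ± 0.15, 8.80 ± 0.23 and 9.23 ± 0.30 at the same times. In corn oil, the 8 h level minus the 2 h level was -1.74 ± 0.21 (adjusted p = 4.43e-05). This step was called for 3 of 9 members, Cdkn1a and Trp53inp1 lower and Gadd45a higher at 8 h, beside 4.06% of all genes. The 24 h level was 1.03 ± 0.21 above the 8 h level (adjusted p = 0.0072), a step called for 2 of 9 members, Cdkn1a and Trp53inp1, and for 2.57% of all genes. With the dimmer Cdkn1a probe set described below, neither step was called (-0.36 and 0.34). With the Actb difference as a covariate the second step of Cdkn1a was 0.94 and not called (adjusted p = 0.0946), and that of Trp53inp1 was not called without corn oil 24 h replicate 1 (0.61, adjusted p = 0.059). Ordered from high to low, DEHP at 2 h stood alone at the top and corn oil at 8 h alone at the bottom. Between them came corn oil at 2 h, corn oil at 72 h, DEHP at 24 h, corn oil at 24 h, DEHP at 72 h and DEHP at 8 h, and the arrays of each of these overlapped with those of the next.

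**Figure D2:**
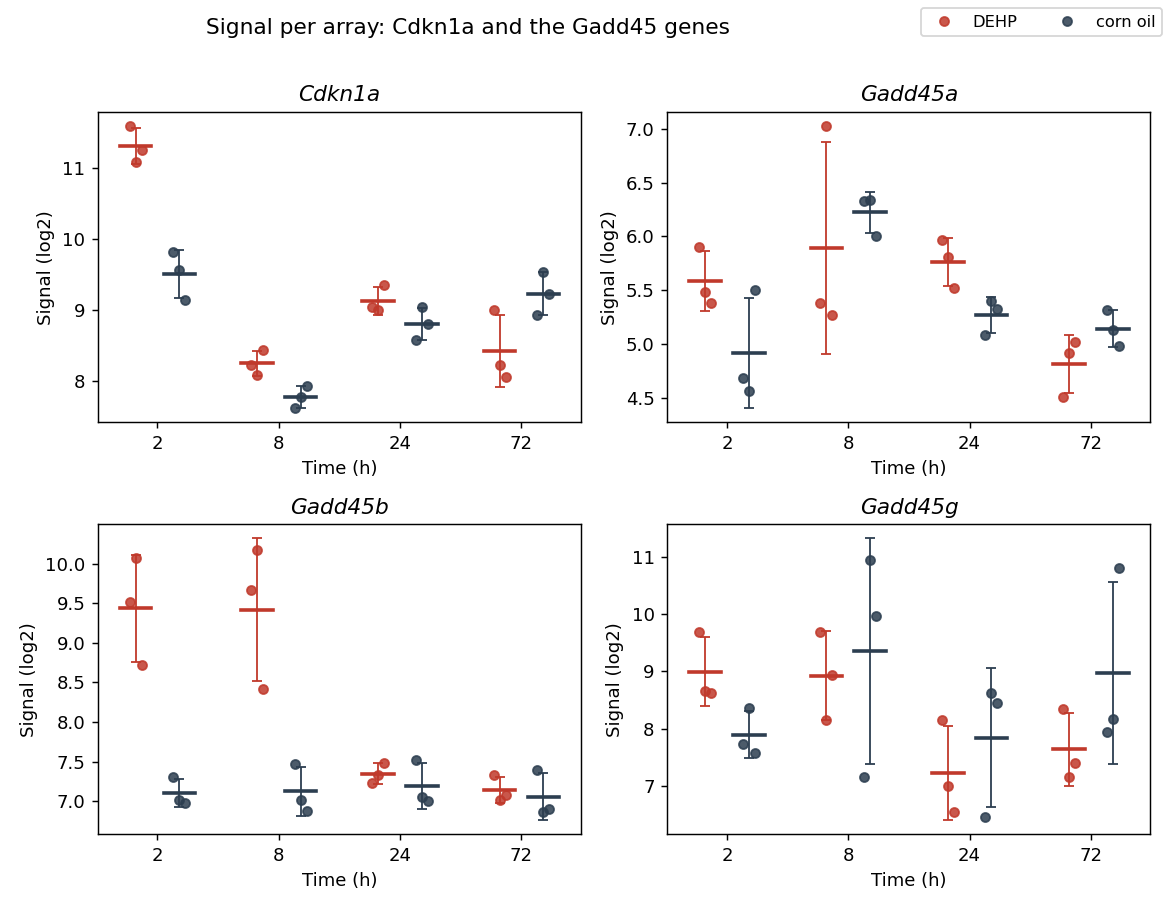
Log2 signal (y axis) of Cdkn1a, Gadd45a, Gadd45b and Gadd45g on each array at 2, 8, 24 and 72 h (x axis), DEHP in red left of corn oil in dark blue, with group mean (line) and SD (bar, n = 3). Cdkn1a was highest with DEHP at 2 h (11.32) and lowest in corn oil at 8 h (7.77); Gadd45b was at 8.42 or higher on the 6 DEHP arrays of 2 and 8 h and at 7.52 or lower on the other 18.

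A second, dimmer Cdkn1a probe set gave smaller differences. Probe set 1424638_at, used above, had a mean signal of 9.05, and 1421679_a_at had 7.19. The second gave 0.63 ± 0.12 at 2 h (adjusted p = 0.00868 over 34958 probe sets), 0.02 ± 0.12 at 8 h, -0.08 ± 0.12 at 24 h and -0.29 ± 0.12 at 72 h (adjusted p = 0.179). Both therefore called a rise at 2 h, and the fall at 72 h was called with the brighter one only. Which transcripts each covers was not tested.

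Gadd45b encodes a small acidic protein that binds the kinase Map3k4 (MEKK4), and in liver it is known as an early gene of growth and stress responses. It lies on chromosome 10 from 80930091 to 80932204, and its relative Gadd45g on chromosome 13 from 51846675 to 51848475, both on the plus strand. The 250 bases before each start (chr10:80929841-80930090 and chr13:51846425-51846674, RefSeq, GRCm38.p6) are shown together because Gadd45b was called in the arrays and its relative was not, a difference between the genes that was not tested. Both windows also hold CCAAT. Capitals mark an E-box, searched as CACGTG, and a TATA box, searched as TATAAA, on both strands.

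Gadd45b: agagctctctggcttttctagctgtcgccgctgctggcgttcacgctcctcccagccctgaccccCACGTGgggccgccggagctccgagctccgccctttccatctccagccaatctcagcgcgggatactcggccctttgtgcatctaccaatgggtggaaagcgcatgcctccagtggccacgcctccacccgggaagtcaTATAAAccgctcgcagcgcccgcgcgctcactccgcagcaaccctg

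Gadd45g: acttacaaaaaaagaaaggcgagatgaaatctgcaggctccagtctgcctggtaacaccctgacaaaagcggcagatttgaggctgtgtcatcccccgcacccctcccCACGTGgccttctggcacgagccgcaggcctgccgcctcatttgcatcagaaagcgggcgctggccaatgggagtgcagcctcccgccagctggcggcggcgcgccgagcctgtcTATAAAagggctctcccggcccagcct

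The E-box stands at -185 to -180 in Gadd45b and at -142 to -137 in Gadd45g, and 6.02% of all windows hold one. The TATA box stands at -46 to -41 in Gadd45b and at -27 to -22 in Gadd45g, and 12.4% of all windows hold one. A DR1 pattern of the kind bound by PPAR alpha with RXR (AGGTCA repeated after any 1 base, in 0.0335% of windows) was found in 0 of the 11 windows. A glucocorticoid response element (AGAACA, any 3 bases and TGTTCT, in 0.00913%) was also found in 0 of them. This says only that these letters are not in these windows, and Trp53inp1 was not searched.

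At 2 h Gadd45b read 9.52, 10.07 and 8.72 in DEHP livers, against 7.31, 7.02 and 6.98 in corn oil livers. The lowest DEHP array lay above the highest corn oil array. The difference was 2.33 ± 0.32, a 5.04-fold rise with an interval of 3.20 to 7.95 (adjusted p = 0.00019).

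At 8 h the DEHP arrays read 9.66, 10.17 and 8.42, against 7.48, 7.02 and 6.88 in corn oil. The groups were again apart, and DEHP replicate 3 was the lowest DEHP array at both times. The difference was 2.29 ± 0.32, a 4.90-fold rise with an interval of 3.11 to 7.72 (adjusted p = 8.89e-05). Without both arrays numbered 14 it was 1.79 (adjusted p = 0.00536), and Cdkn1a at 8 h was 0.64 (adjusted p = 0.222). Both Gadd45b calls held under each alternative run, with adjusted p of at most 0.00276 at 2 h and 0.0123 at 8 h. None of these alternatives used its dimmest probe set, described below, alone.

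At 24 h the DEHP arrays read 7.23, 7.33 and 7.48, against 7.52, 7.06 and 7.00 in corn oil (0.16 ± 0.32, adjusted p = 0.928). At 72 h they read 7.33, 7.02 and 7.08, against 7.40, 6.87 and 6.91 (0.09 ± 0.32, adjusted p = 0.912). At both times the groups overlapped, and the interval of the difference ran from -0.50 to 0.81 at 24 h and from -0.57 to 0.74 at 72 h.

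The DEHP effect on Gadd45b differed between times (F test, adjusted p = 0.00304). Its effect at 24 h minus that at 8 h was -2.14 ± 0.45 (adjusted p = 0.0278, beside 0.467% of all genes called), a call that 11 of 35 alternatives did not keep. Its effect at 8 h minus that at 2 h was -0.04 ± 0.45, with an interval of -0.97 to 0.89. In corn oil Gadd45b means ran from 7.06 to 7.19 over the 4 times, with no called difference (F test, adjusted p = 0.992). Ordered from high to low, the DEHP groups of 2 and 8 h overlapped with each other and stood 2.07 above the next group, and the other 6 groups, from 7.35 down to 7.06, overlapped with their neighbours.

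Gadd45b was also measured by 2 dimmer probe sets, which differed from each other. Probe set 1449773_s_at gave 3.30 ± 0.30 at 2 h, 2.49 ± 0.30 at 8 h, 0.08 at 24 h and -0.21 at 72 h, with adjusted p of 2.46e-06 and 2.76e-05 over probe sets at the first 2 times. Probe set 1420197_at gave 0.01 ± 0.16, 0.33 ± 0.16, -0.20 ± 0.16 and -0.42 ± 0.16 at the same times and was called at none of them. The rise was thus seen by 2 of the gene's 3 probe sets.

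**Figure D3:**
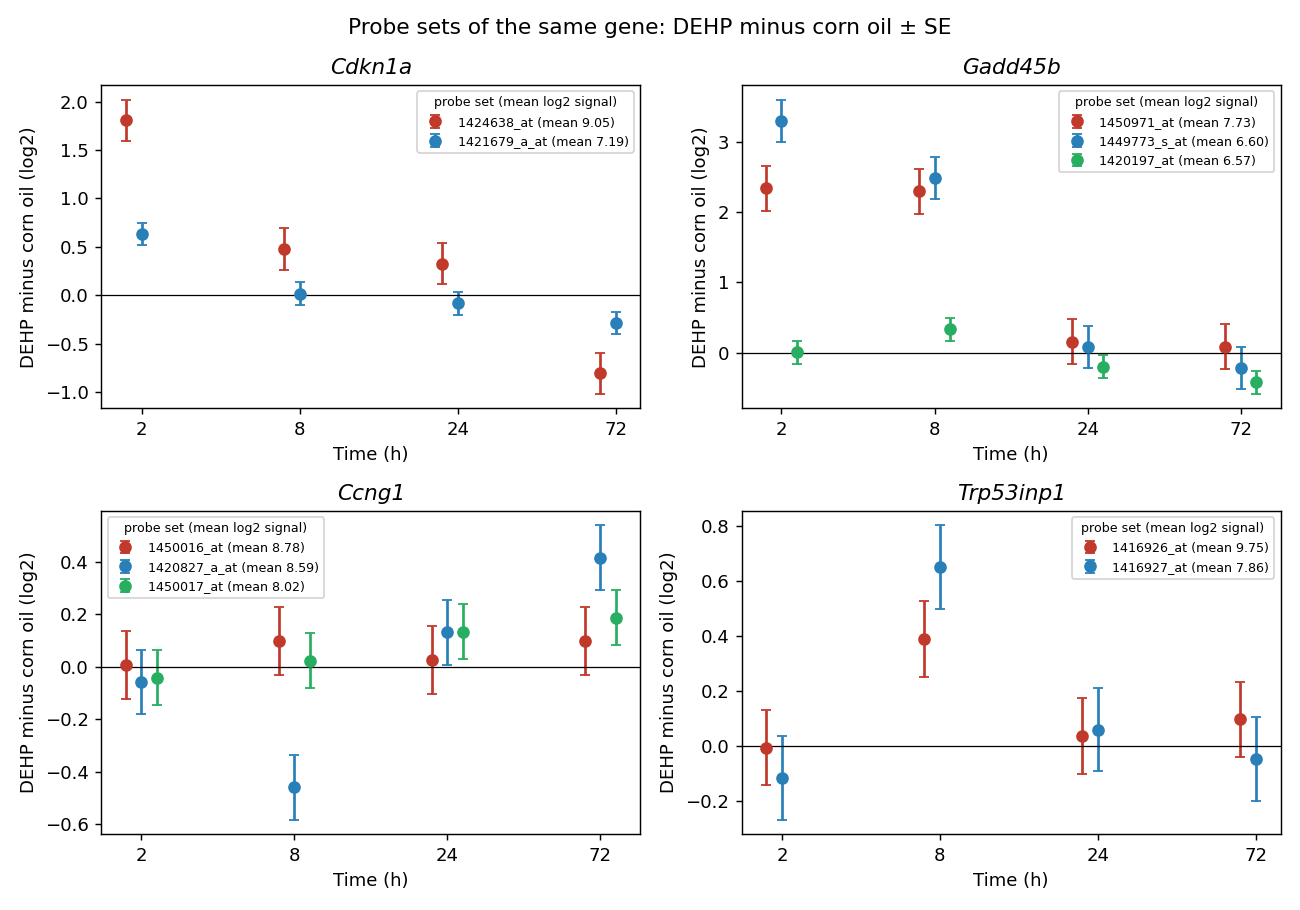
DEHP minus corn oil (y axis, log2 difference ± SE) at 2, 8, 24 and 72 h (x axis) for each probe set of Cdkn1a, Gadd45b, Ccng1 and Trp53inp1, with the mean log2 signal of each probe set in the legend. At 2 h the probe sets of Cdkn1a stood at 1.81 and 0.63, and those of Gadd45b at 2.33, 3.30 and 0.01.

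Gadd45a, the member of the family most closely tied to p53, was not called. At 2 h the DEHP arrays read 5.91, 5.48 and 5.38, against 4.69, 4.57 and 5.51 in corn oil (0.67 ± 0.31, adjusted p = 0.552). At 8 h they read 5.38, 7.02 and 5.27, against 6.33, 6.33 and 6.00 (-0.33 ± 0.31, adjusted p = 0.715). DEHP replicate 2 stood above all corn oil arrays at 8 h and the other two DEHP arrays below them. Without that array the 8 h difference was -0.90 and was called (adjusted p = 0.0206), and without both arrays numbered 14 it was -1.01 (adjusted p = 0.0218).

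At 24 h Gadd45a read 5.96, 5.81 and 5.53 on DEHP arrays, against 5.09, 5.40 and 5.33 in corn oil, the groups lying apart without a call (0.49 ± 0.31, adjusted p = 0.701). At 72 h it read 4.51, 4.92 and 5.02, against 5.32, 5.13 and 4.98 (-0.33 ± 0.31, adjusted p = 0.576). In corn oil the 8 h level was 1.30 ± 0.31 above the 2 h level (adjusted p = 0.016), the opposite direction to Cdkn1a over the same step. That call was lost in 6 of 34 alternatives, among them the Actb covariate (1.19, adjusted p = 0.195) and leaving out corn oil 8 h replicate 2 (1.25, adjusted p = 0.0694). The F test over the corn oil times gave an adjusted p of 0.049, with 3.55% of all genes called, and this call was lost in most of the alternatives tried.

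Gadd45g, which like its relatives binds Map3k4, varied more between arrays of a group than 99.9% of genes, with a residual SD of 1.12. At 2 h the DEHP arrays read 9.69, 8.66 and 8.63, against 7.74, 8.36 and 7.59 in corn oil. The groups lay apart, but the difference of 1.10 ± 0.78 was not called (adjusted p = 0.797). At 8 h DEHP arrays read 9.69, 8.16 and 8.94, against 7.15, 10.94 and 9.97 in corn oil (-0.42 ± 0.78), a range of the corn oil arrays that enclosed all the DEHP values. At 24 h they read 8.15, 7.00 and 6.55, against 6.45, 8.63 and 8.46 (-0.61 ± 0.78). At 72 h they read 8.35, 7.16 and 7.41, against 7.94, 8.18 and 10.81 (-1.33 ± 0.78, adjusted p = 0.332), and without corn oil replicate 3 the difference was -0.42. With this spread, the interval at 2 h ran from -0.52 to 2.71, so that a change as large as that of Gadd45b could not be told from none.

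Mdm2, the ligase that marks p53 for degradation, was called at no time. At 2 h the DEHP arrays read 8.83, 8.36 and 8.67, against 8.25, 8.58 and 8.30 in corn oil (0.25 ± 0.12, adjusted p = 0.626). At 8 h they read 8.65, 8.80 and 8.65, against 8.54, 8.16 and 8.54 (0.28 ± 0.12, adjusted p = 0.249). At 24 h they read 8.52, 8.51 and 8.75, against 8.61, 8.48 and 8.84 (-0.05 ± 0.12, adjusted p = 0.944). The groups lay apart at 8 h, with DEHP above, and at 72 h, with DEHP below. At 72 h the arrays read 8.54, 8.42 and 8.54 with DEHP, against 8.74, 8.89 and 8.78 in corn oil (-0.31 ± 0.12, adjusted p = 0.159). For this probe set the interval at 2 h ran from -0.01 to 0.50. The other Mdm2 probe sets gave 0.16 and 0.002 at 2 h and -0.14 and 0.15 at 72 h, and were called at no time.

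Btg2, an antiproliferative gene and immediate-early target of p53, read 8.21, 8.03 and 7.80 on DEHP arrays at 2 h, against 8.37, 8.59 and 8.34 in corn oil. DEHP lay below throughout, without a call (-0.42 ± 0.37, adjusted p = 0.865). At 8 h the arrays read 7.99, 7.88 and 7.53 with DEHP, against 8.11, 7.95 and 7.91 (-0.19 ± 0.37), and at 24 h 8.21, 8.25 and 8.16, against 8.26, 8.18 and 8.53 (-0.12 ± 0.37). At 72 h they read 7.94, 7.75 and 7.90 with DEHP, against 10.49, 7.98 and 8.00 in corn oil. The difference of -0.96 ± 0.37 (adjusted p = 0.138) rested on corn oil replicate 1, without which it was -0.13. That array was also the one with the high immediate-early genes. The second Btg2 probe set gave -0.40 at 2 h, 0.04 at 8 h, 0.09 at 24 h and -0.54 at 72 h, without a call.

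Ccng1, an atypical cyclin that recruits a phosphatase to Mdm2, was called at no time. Its DEHP means were 8.78 ± 0.10, 8.62 ± 0.19, 8.81 ± 0.21 and 9.04 ± 0.04 at 2, 8, 24 and 72 h, and its corn oil means were 8.77 ± 0.10, 8.53 ± 0.24, 8.79 ± 0.15 and 8.94 ± 0.20. The differences were 0.01, 0.10, 0.03 and 0.10, each ± 0.13, with intervals that stayed between -0.26 and 0.37. Its second probe set, 1420827_a_at, gave another picture at 8 h (-0.46 ± 0.12, adjusted p = 0.041 over probe sets) and 72 h (0.42 ± 0.12, adjusted p = 0.0699), while the third gave 0.02 and 0.19.

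Sesn1, a stress-induced regulator of mTORC1 signalling, had DEHP means of 7.98 ± 0.23, 8.11 ± 0.05, 8.21 ± 0.15 and 8.45 ± 0.15 at the 4 times, and corn oil means of 8.28 ± 0.14, 8.27 ± 0.12, 8.31 ± 0.07 and 8.27 ± 0.09. The difference was -0.30 ± 0.11 at 2 h (adjusted p = 0.349), -0.16 at 8 h, -0.10 at 24 h and 0.18 at 72 h, none of them called. Its 2 h value ran opposite to those of Cdkn1a and Gadd45b. The other Sesn1 probe sets gave -0.52, -0.29 and -0.14 at 2 h and -0.01, -0.34 and 0.12 at 8 h. They gave 0.13, 0.10 and 0.04 at 24 h and 0.34, 0.64 and 0.16 at 72 h, also without a call.

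Trp53inp1, which promotes p53-dependent death and autophagy, was called between times in corn oil, as Cdkn1a was, and at no time for DEHP. Its DEHP means were 9.92 ± 0.17, 9.46 ± 0.16, 9.77 ± 0.23 and 10.12 ± 0.30, and its corn oil means were 9.93 ± 0.03, 9.07 ± 0.10, 9.73 ± 0.09 and 10.03 ± 0.20. In corn oil the 8 h level minus the 2 h level was -0.85 ± 0.14 (adjusted p = 0.000647) and the 24 h level 0.66 ± 0.14 above the 8 h level (adjusted p = 0.00786). The F test over the corn oil times gave an adjusted p of 0.000533 for Trp53inp1 and 0.000135 for Cdkn1a.

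At 8 h the Trp53inp1 arrays read 9.40, 9.65 and 9.34 with DEHP, against 9.07, 9.17 and 8.97 in corn oil. The groups lay apart, and the difference of 0.39 ± 0.14 was not called (adjusted p = 0.122), and without both arrays numbered 14 it was 0.25. The dimmer probe set 1416927_at gave 0.65 ± 0.15 at that time (adjusted p = 0.0169 over probe sets), and the mean of both gave 0.52 (adjusted p = 0.00218 over genes). At 2, 24 and 72 h the differences were -0.01, 0.04 and 0.10.

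**Figure D4:**
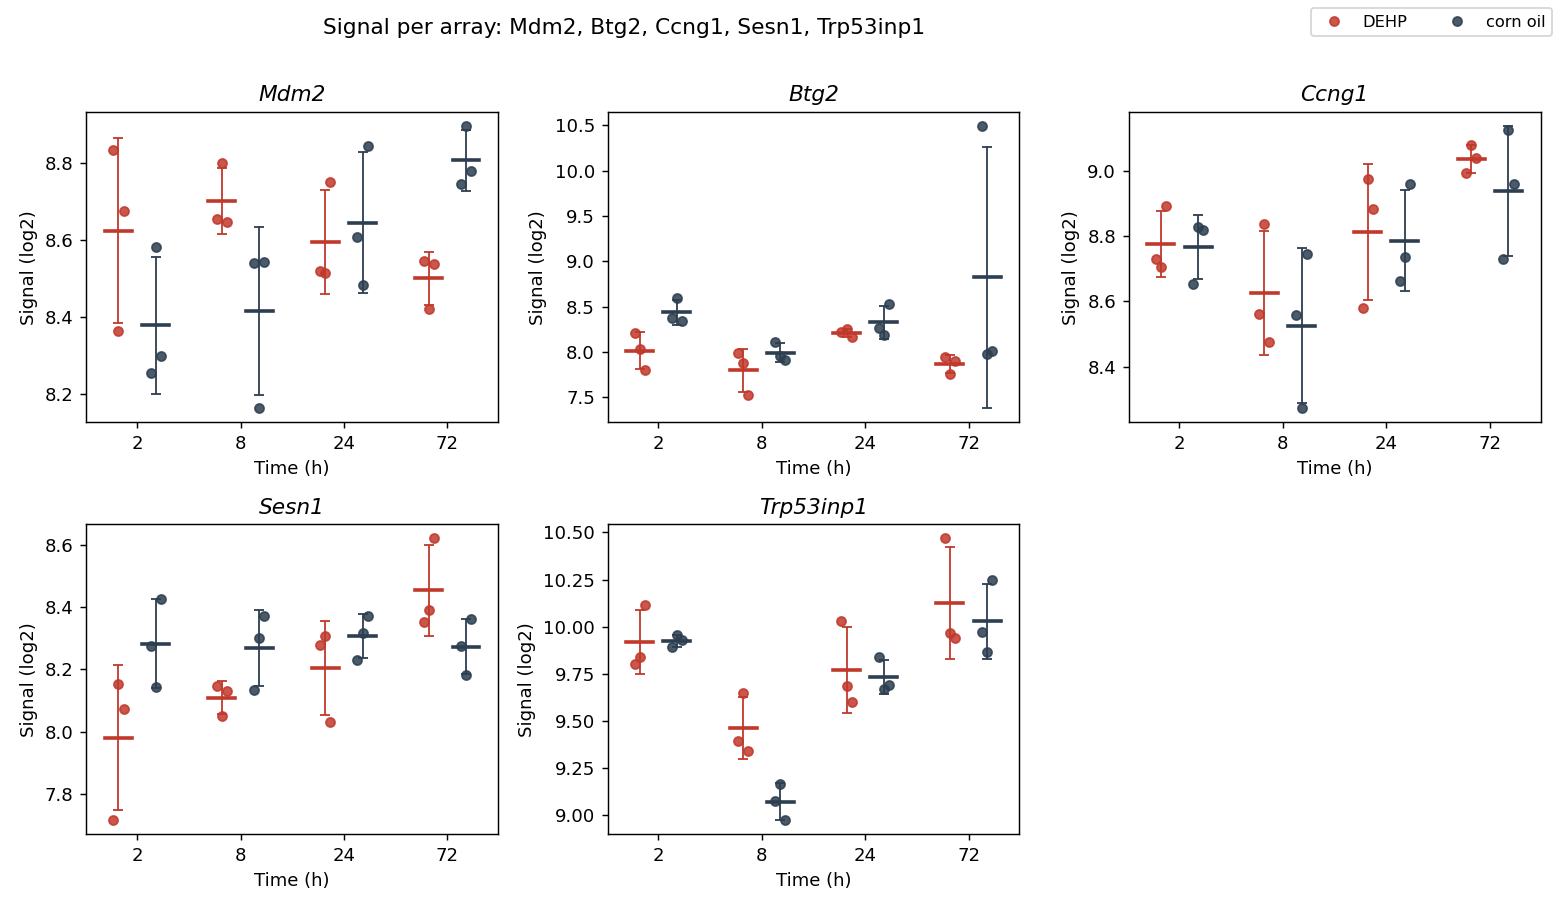
Log2 signal (y axis) of Mdm2, Btg2, Ccng1, Sesn1 and Trp53inp1 on each array at 2, 8, 24 and 72 h (x axis), DEHP in red left of corn oil in dark blue, with group mean (line) and SD (bar, n = 3); each panel has its own scale. The single high Btg2 array is corn oil 72 h replicate 1 (10.49), and Trp53inp1 was lowest at 8 h in corn oil (9.07).

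Across the 24 arrays the Pearson r between pairs of members ranged from -0.65 (Gadd45b and Sesn1) to 0.57 (Ccng1 and Trp53inp1). Cdkn1a and Gadd45b had an r of 0.37 over all arrays and -0.22 within groups, and Cdkn1a and Mdm2 had 0.17 and 0.25. These values describe 24 arrays that share treatments and times and carry no test. By the same measure, the genes most like Cdkn1a over the 24 arrays were Slc45a3 (r = 0.91, and 0.63 within groups), Dtx4 (0.89 and 0.56) and Ndrg1 (0.88 and 0.30). The DEHP minus corn oil differences of Slc45a3 were 0.66, 0.15, -0.14 and -0.70 at 2, 8, 24 and 72 h.

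The genes most like Gadd45b were Pdk4, the kinase that turns off pyruvate dehydrogenase in fasting (r = 0.93, and 0.46 within groups), Fbf1 (0.89 and 0.02) and Elmod3 (0.88 and 0.19). Pdk4 differences were 4.96, 5.97, 1.00 and 0.68 at the 4 times, and those of Fbf1 were 1.42, 1.45, 0.37 and 0.31. The likeness of Fbf1 and Elmod3 to Gadd45b was far lower within groups than over the 8 group means (0.97 and 0.94), so it lay mostly in the group means.

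The counts of the further lists stand against the shares over all genes, which were 0.830%, 4.13%, 0.297% and 4.18% called at 2, 8, 24 and 72 h, and 8.43%, 15.7%, 8.13% and 21.6% at an unadjusted p under 0.05. Of 24 measured further p53 targets, which include Bbc3, Pmaip1, Fas, Phlda3, Zmat3 and Ddb2, limma called 1 at 2 h, 1 at 8 h, 0 at 24 h and 0 at 72 h, with 4, 3, 2 and 8 at an unadjusted p under 0.05. Slc19a2, a thiamine transporter, was lower at 2 h (-0.47 ± 0.08, adjusted p = 0.00289), with means of 10.24 ± 0.07 in DEHP and 10.71 ± 0.02 in corn oil. This call was lost with the mean of all its probe sets (-0.44, adjusted p = 0.054). Ercc5, a nuclease of excision repair, was lower at 8 h (-0.49 ± 0.10, adjusted p = 0.00363), a call lost in the same way (-0.22, adjusted p = 0.092). Both called genes were lower with DEHP. Plk2, a polo-like kinase, showed the largest uncalled differences at 24 h (0.64 ± 0.29) and 72 h (0.99 ± 0.29, adjusted p = 0.0557). The median of the list was 0.02, 0.01, 0.01 and -0.00 at the 4 times.

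Regulators of p53 and damage kinases, 15 genes including Mdm4, Atm, Atr and Ppm1d, gave 0 calls in limma at 2, 8 and 24 h (3, 2 and 1 at an unadjusted p under 0.05) and 1 at 72 h. The largest uncalled values were those of Prkdc at 2 h (0.29 ± 0.12), Usp7 at 8 h (-0.26 ± 0.12) and Hipk2 at 24 h (-0.42 ± 0.13). Chek1, a checkpoint kinase, was higher at 72 h (0.32 ± 0.09, adjusted p = 0.0456), and this call was lost in 19 of 34 alternatives. Among 14 measured relatives of the members, Sesn3 was lower at 8 h (-0.58 ± 0.12, adjusted p = 0.00388), with means of 8.54 ± 0.07 in DEHP and 9.13 ± 0.30 in corn oil, a call lost with the Actb difference between the 3' and 5' ends as a covariate (-0.47, adjusted p = 0.0721). At 2, 24 and 72 h limma called 0 of the relatives (1, 0 and 4 at an unadjusted p under 0.05), with the largest values in Ccng2 at 2 h (0.47 ± 0.23) and Tob2 at 24 h (-0.35 ± 0.22) and 72 h (-0.59 ± 0.22).

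The cyclins, kinases and PCNA that p21 binds were called in 0 of 11 cases at each time by limma, with 3, 1, 1 and 6 at an unadjusted p under 0.05. Ccnd1, the cyclin of the G1 phase, had the largest value at 2 h (-0.64 ± 0.21, adjusted p = 0.263) and at 8 h (0.60 ± 0.21, adjusted p = 0.129). Cdk6 had it at 24 h (-0.45 ± 0.13) and Cdk1, the mitotic kinase, at 72 h (0.82 ± 0.24, adjusted p = 0.0565), when DEHP means were 7.98 ± 0.85 and corn oil means 7.16 ± 0.16.

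Further lists covered signals known to reach these genes without p53. Of 10 genes of the stress response through Atf4, limma called 0 at 2 h and 0 at 24 h (0 and 3 at an unadjusted p under 0.05), with the largest values in Asns, the asparagine synthetase (0.22 ± 0.36 and -0.41 ± 0.36). Chac1, which degrades glutathione, was lower at 8 h (-0.73 ± 0.18, adjusted p = 0.0202), a call lost without both arrays numbered 14 (-0.51, adjusted p = 0.233). At 72 h 3 of 10 were lower, where 3.05% of all genes were called lower, and 9 had an unadjusted p under 0.05: the called genes were Ddit3 (-0.74 ± 0.14, adjusted p = 0.00537), which encodes the stress factor CHOP, Ddit4 (-0.77 ± 0.22, adjusted p = 0.0473), an mTORC1 inhibitor, and Ppp1r15a (-0.35 ± 0.08, adjusted p = 0.0155), also named Gadd34. The list median at 72 h was -0.37, against -0.03 over all genes. Of the 10 differences at 72 h, 7 were negative and 3 positive, the highest being 0.47. The 9 genes at an unadjusted p under 0.05 thus ran in both directions. The Ddit4 call was lost in 18 of 35 alternatives and that of Ppp1r15a in 5, including quantile normalization (-0.23), and the Ddit3 call held in all 35.

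Of 10 fasting and FoxO genes, Pdk4 was higher at 2 h (4.96 ± 0.27, adjusted p = 1.47e-10) and 8 h (5.97 ± 0.27, adjusted p = 2.91e-12), and Foxo3, a factor known to act on Cdkn1a and the Gadd45 genes, was lower at 2 h (-0.93 ± 0.14, adjusted p = 0.000649). Foxo3 means at 2 h were 8.24 ± 0.13 in DEHP and 9.17 ± 0.16 in corn oil. At 24 and 72 h limma called 0 of the 10 (4 and 2 at an unadjusted p under 0.05), with the largest values in Igfbp1 at 24 h (1.20 ± 0.51) and Bcl6 at 72 h (-1.02). Of 12 immediate-early genes, Jun was higher at 2 h (1.51 ± 0.35, adjusted p = 0.0393), a call lost in 11 of 35 alternatives, and the phosphatase Dusp1 was lower at 8 h (-1.26 ± 0.31, adjusted p = 0.0189), a call lost in 8 of 35, among them that without both arrays numbered 14 (-0.99, adjusted p = 0.183). At 24 and 72 h 0 were called (1 and 4 at an unadjusted p under 0.05), with the largest values in Egr1 at 24 h (1.77 ± 0.95) and Fos at 72 h (-1.77 ± 0.67). The list mean at 72 h was 9.30 on corn oil replicate 1, against 7.31 and 7.62 on replicates 2 and 3. On the DEHP arrays of that time it was 7.43 to 7.63.

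**Figure D5:**
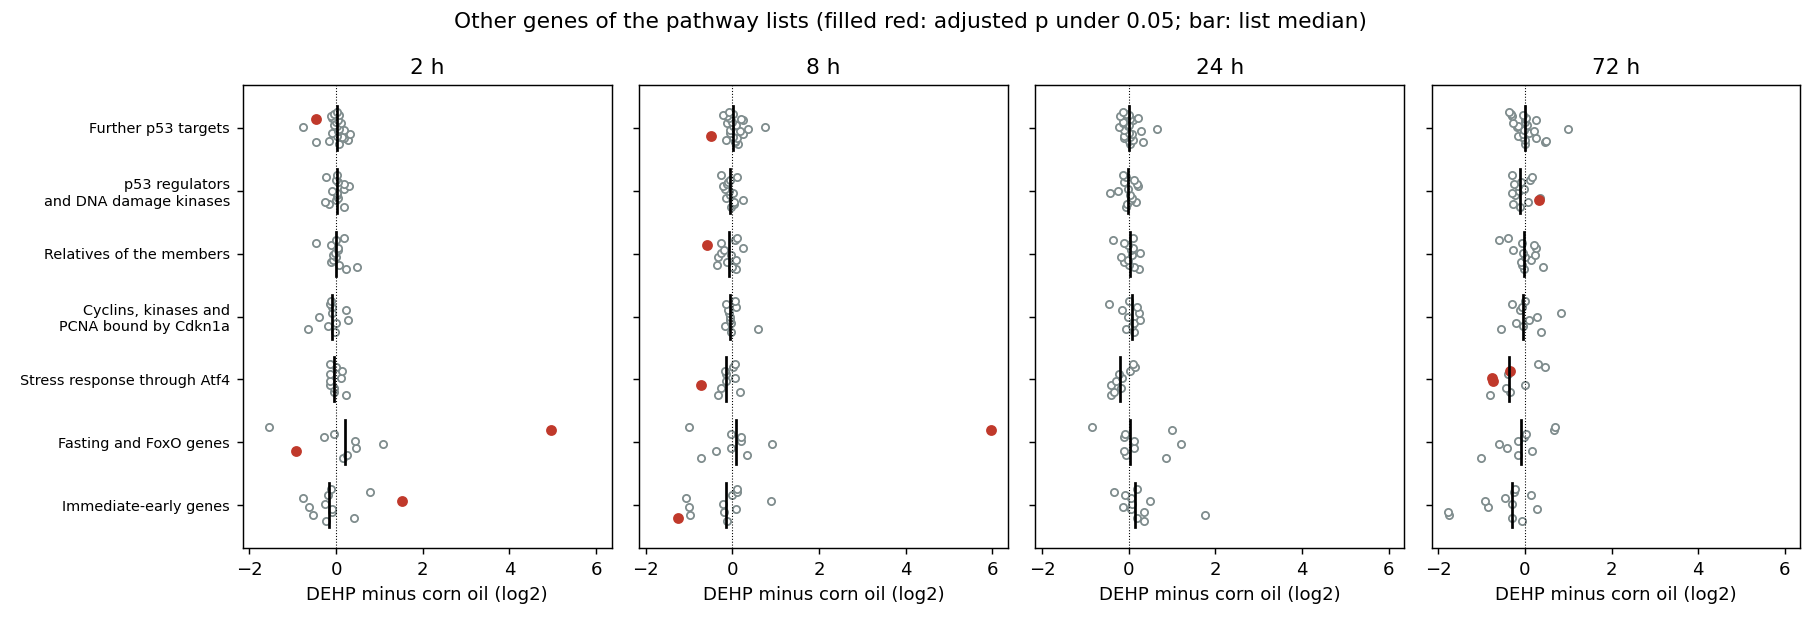
DEHP minus corn oil (x axis, log2 difference) for every measured gene of 7 further lists (y axis) at 2, 8, 24 and 72 h; filled red points have an adjusted p under 0.05 and bars mark the list medians. The medians of the further p53 targets lie at 0.02, 0.01, 0.01 and -0.00, and the points at 4.96 and 5.97 are Pdk4.

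Markers of other processes were also read, at times with and without a call of Cdkn1a. At 2 h the mean of 6 acute phase genes was 13.51, 10.58 and 12.91 with DEHP, against 9.09, 8.99 and 9.85 with corn oil. All 6 differences were positive, 1 of them called (Saa2, 4.21 ± 0.95, adjusted p = 0.0344), where 0.616% of all genes were called higher. The lowest acute phase value among the DEHP arrays of 2 h was that of replicate 2, whose Cdkn1a signal was the lowest of the 3 and whose Gadd45b signal was the highest. At 8 h the order was another. DEHP replicate 2 had the highest acute phase mean of the 3 (12.94), with the lowest Cdkn1a signal (8.08) and the highest Gadd45b signal (10.17).

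At 72 h the acute phase mean was 8.40, 8.33 and 8.47 with DEHP, against 13.30, 9.93 and 9.78 in corn oil. Of the 6 genes, Saa1 and Saa2 were called lower, where 3.05% of all genes were called lower. At that time 2 of 6 macrophage markers were also lower, Adgre1 (-0.49 ± 0.13, adjusted p = 0.038) and Cd5l (-0.90 ± 0.23, adjusted p = 0.0284), with a list mean of 8.69 to 8.97 on DEHP arrays and 9.18 to 9.55 on corn oil arrays. The median of 6 endothelial markers was -0.40, with 0 called by limma and 3 at an unadjusted p under 0.05, beside 21.6% of all genes. At 8 h, when Gadd45b was called and Cdkn1a was not, the acute phase mean was 11.35, 12.94 and 11.39 with DEHP, against 13.35, 10.69 and 10.97 in corn oil. At 24 h, when neither was called, it was 9.26, 8.69 and 9.17 with DEHP, against 9.25, 9.04 and 11.72 in corn oil. All 6 acute phase differences were negative at 24 h, with a median of -1.27. Of them 0 were called, where 0.297% of all genes were called. The part of these markers in the changes of Cdkn1a and Gadd45b was not tested.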

How the data were processed

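Liver RNA was hybridised to 24 1-colour Affymetrix arrays. The authors deposited log2 signals for 45101 probe sets, made with RMA per the submitters' processing notes, in which no version is given. They ranged from 2.84 to 14.55 and were used as deposited. Arrays carry no read depth, and 3 arrays a group limit the precision. RMA normalizes arrays against each other, so differences are relative to the other genes. The deposited arrays were not fully equal, with medians from 6.46 (DEHP 2 h replicate 1) to 6.55 (corn oil 2 h replicate 2). A further quantile normalization therefore changed some values and calls.

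Probe sets annotated to a single gene were kept, and the brightest over the 24 arrays stood for each of 18194 genes. Groups came from the labelled compound and time. One model of 8 group means was fitted with limma 3.58.1 in R 4.3.3 (16 residual and 6.21 prior degrees of freedom), with Benjamini-Hochberg adjustment over all genes for each contrast and F test, and a threshold of 0.05. Probe sets of the members were adjusted over 34958 probe sets. The fit was tested on simulated data. The replicate numbers were checked for pairing: over 12 pairs of same-numbered DEHP and corn oil arrays of a time, deviations from the group means correlated with r between -0.35 and 0.14, with 1 above 0.1, so the numbers were not taken as pairs.

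The members and the further lists were chosen with earlier results of these data known. All members were described. Of each further list, the called genes of each time were named (up to 4 by size of change), or, at times without a call, the gene that changed most in size. For each member called, the 3 named genes with the highest r over 24 arrays were given. Alternatives covered normalization, variance model, probe set choice, a filter on dim genes, the arrays fitted and the Actb difference. They also covered the threshold, each array left out and the replicate number as a block. A further block set the first replicate of every group against the later ones, as the labels name no batch.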

Additional observations from a re-analysis of the deposited data

Results flagged for a closer look

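The effect of DEHP differed between the 4 times for 2 of the 9 measured members, by an F test on the 4 differences in limma, where 2.08% of all genes were called. For Cdkn1a the adjusted p was 0.000395, with differences of 1.81, 0.48, 0.33 and -0.81 at 2, 8, 24 and 72 h. The 3 DEHP arrays lay above the 3 corn oil arrays at 2 and 8 h. For Gadd45b the adjusted p was 0.00304, with differences of 2.33, 2.29, 0.16 and 0.09, and the DEHP arrays lay above the corn oil arrays at 2 and 8 h. Both calls held under each of the alternatives tried for this F test, none of which used the dimmest Gadd45b probe set alone.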

How the results depend on the processing

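Results were recomputed under 37 alternatives, 24 of which left out 1 array each. Of these, 2 were chosen after seeing the data. They were the dimmer probe set, meaning the second brightest, of each member that had several, and the joint removal of 2 corn oil arrays. The arrays removed were replicate 2 of 8 h and replicate 1 of 72 h. Cdkn1a at 2 h and Gadd45b at 2 and 8 h were called under each alternative that gave a value. The dimmest Gadd45b probe set, 1420197_at, was not used alone in any alternative, and it was called at no time. The number of members called at 8 h, 1 in the report, was 2 with the mean of a gene's probe sets, 2 without both arrays numbered 14, 3 with the dimmer probe sets, and 1 to 2 with single arrays left out. The number at 72 h, also 1, was 0 after quantile normalization, 0 with the 6 arrays of a time alone, 0 at an adjusted p under 0.01, 0 with the dimmer probe sets, and 0 to 1 with single arrays left out. Called further genes were counted over the further lists and the times together. No share of all genes was computed in that way, so whether the count was above such a share was not tested. The count was 12, with 6 at an adjusted p under 0.01 and 8 to 18 with single arrays left out. Apart from the stricter threshold, the cause of these changes was not tested. Leaving out arrays changed which arrays were fitted as well as their number.

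The replicate number as a block left 2, 1, 0 and 1 members called at 2, 8, 24 and 72 h, and 158, 763, 52 and 758 genes in all. The numbers did not pair the arrays, and the call of the Cdkn1a effect at 8 h minus 2 h was lost under it (adjusted p = 0.0635).

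The differences that changed sign were all uncalled in the report. With the dimmer probe sets these were Btg2 at 8 h (0.036) and 24 h (0.088), Ccng1 at 2 h (-0.058) and 8 h (-0.46), Cdkn1a at 24 h (-0.084), Gadd45b at 72 h (-0.21), Sesn1 at 24 h (0.13) and Trp53inp1 at 72 h (-0.048). With the mean of probe sets they were Ccng1 at 2 h (-0.030) and 8 h (-0.11), Gadd45b at 72 h (-0.18) and Sesn1 at 24 h (0.041). With the Actb difference as a covariate they were Ccng1 at 2 h (-0.000186) and 8 h (-0.068) and Gadd45g at 8 h (0.33). Ccng1 at 2 h was -0.0068 after quantile normalization, and Gadd45g at 8 h was 0.27 without both arrays numbered 14. Without the 2 corn oil arrays, Gadd45g at 8 h was 0.37, and Ccng1 was -0.028 at 8 h and -0.0049 at 72 h. With single arrays left out, Ccng1 ran from -0.049 to 0.043 at 2 h, from -0.028 to 0.21 at 8 h, from -0.055 to 0.14 at 24 h and from -0.0049 to 0.19 at 72 h. Gadd45b at 72 h ran from -0.0090 to 0.26, Gadd45g at 8 h from -1.53 to 0.37 and Mdm2 at 24 h from -0.13 to 0.049. Trp53inp1 ran from -0.10 to 0.053 at 2 h, from -0.092 to 0.12 at 24 h and from -0.075 to 0.21 at 72 h.

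Counts over all genes moved more. At 2 h 151 genes were called, 95 with the 6 arrays alone, 62 at an adjusted p under 0.01 and 65 to 239 with single arrays left out. At 8 h 752 were called, 424 with the 6 arrays alone, 327 with the Actb covariate, 346 at 0.01, 489 without the 2 corn oil arrays and 388 to 852 with single arrays left out. At 24 h 54 were called, 21 with the 6 arrays alone, 29 at 0.01 and 27 to 97 with single arrays left out, and at 72 h 760 were called, 176 at 0.01 and 247 to 1095 with single arrays left out.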
